A study of Homo sapiens with 6 samples.

Results

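The genes described here carry cystine into the cell and make, break down, recycle and use glutathione. They are 9 of the 19845 genes in the count table, namely SLC7A11, SLC3A2, CHAC1, CHAC2, GCLC, GCLM, GSS, GSR and GPX4. The choice was made by name for these roles and not by a threshold on their values. Earlier results of these data were known when it was made. RNA-seq was done on Molm13 cells made to express the Cas9 nuclease. Molm13 is a line from a human acute myeloid leukemia with a rearranged MLL gene. All 6 cultures received guide RNAs in the lentiviral vector ipUSEPR and were kept under puromycin at 1.0 µg/ml. In 3 cultures the guides were controls (sgCtrl #1, #2 and #3), and in 3 they targeted COX4I1, a nuclear-encoded subunit of Complex IV of the respiratory chain (sgCOX4I1 #1, #2 and #3). The guides of a group have different sequences, so the spread within a group holds differences between guides as well as between cultures. The labels describe selection by puromycin and no cloning, and in such bulk samples a change in the number of cells that express a gene and a change in RNA per cell cannot be told apart.

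Cells import cystine, the oxidized dimer of cysteine, through system xc-, in which SLC7A11 is the transporting subunit and SLC3A2 the heavy chain that holds it at the membrane. Cysteine is joined to glutamate by glutamate-cysteine ligase (catalytic subunit GCLC, modifier subunit GCLM), and glutathione synthetase (GSS) adds glycine to complete glutathione. CHAC1 and CHAC2 cleave glutathione in the cytosol, GSR reduces its oxidized form with NADPH, and GPX4, a selenoprotein, spends glutathione to remove lipid peroxides, which is why this route is known as a guard against ferroptosis.

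The stretches of RefSeq promoter windows shown here hold core motifs of the stress-responsive factors known to act on such genes. The letters searched were TGACNNNGC, the core of the antioxidant response element bound by NRF2, and TGATGNAA, the core of the composite element bound by ATF4 with a C/EBP partner. Both strands of 300-base RefSeq promoters (GRCh38.p14) were read, and among all such promoters 13.35% held the first core and 3.617% the second. Of the 9 genes, 6 had a promoter there, namely SLC3A2, CHAC1, CHAC2, GCLC, GCLM and GPX4. Positions count from the transcription start, the printed strand is that of the gene, and capitals mark the match.
CHAC1, chr15:40953251-40953280, plus strand, second core read on the opposite strand: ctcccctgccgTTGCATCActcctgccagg
GCLM, chr1:93909456-93909555, minus strand, first core read on the opposite strand: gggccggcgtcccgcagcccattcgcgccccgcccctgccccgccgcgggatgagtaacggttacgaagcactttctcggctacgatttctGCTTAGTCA
SLC3A2, chr11:62881599-62881698, plus strand, first core: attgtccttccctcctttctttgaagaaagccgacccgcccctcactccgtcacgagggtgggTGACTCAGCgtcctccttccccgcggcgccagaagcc

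The CHAC1 match began 209 bases before the start of the canonical transcript, inside an annotated exon of a CHAC1 transcript that starts further upstream, so this stretch is also transcribed sequence in GENCODE 44, and the GCLM match 34 bases before its own. The SLC3A2 match belonged to a start other than the canonical one, 37 bases upstream of it, and the same promoter also held the second core 38 bases downstream of that start, on the opposite strand. No match was found in these windows for CHAC2, GCLC, GPX4 or the other SLC3A2 starts. Letters that match a motif are a description of the promoter and not evidence that a factor was bound.

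The libraries held between 17241014 and 30861943 counts, and 11861 genes passed the filter on low counts, among them all 9 described here, of which the lowest count in any library was 56. Levels are given as CPM, the count of a gene relative to the TMM-normalized total of its library, and the TMM factors lay between 0.987 and 1.01. Unless said otherwise, an adjusted p comes from the edgeR quasi-likelihood test over all genes with Benjamini-Hochberg adjustment. COX4I1 itself was at 513, 502 and 463 CPM in sgCtrl and at 132, 378 and 133 CPM in sgCOX4I1, so sgCOX4I1 #2 kept 76.7% of the control mean and the other two 26.7% and 27.0%. The COX4I1 log2 fold change was -1.21 (adjusted p = 0.0512, edgeR quasi-likelihood, Benjamini-Hochberg), and -1.89 without sgCOX4I1 #2 (adjusted p = 3.37e-06, the same edgeR test). Among 11 markers of Molm13 and other myeloid cells, all exceeded 1 CPM in at least 1 library, with a summed level of 2475 to 3428 CPM in sgCtrl and 3142 to 4251 CPM in sgCOX4I1. Most of that sum was LYZ, the gene of lysozyme, at a mean of 1590 CPM in sgCtrl and 2717 CPM in sgCOX4I1 (adjusted p = 0.0534, edgeR), whereas 8 of the 11 markers had log2 fold changes below 0, with a median of -0.12. Among the 11, 1 passed the test, MPO, a granule enzyme of immature myeloid cells, which fell from 227 to 109 CPM on average (adjusted p = 1.59e-05, edgeR). Of 14 markers of other cell types, 12 stayed under 1 CPM in every library and 6 were at 0, the exceptions being NCAM1 and PECAM1, and the list summed to 270.3 to 320 CPM in sgCtrl and 304 to 357 CPM in sgCOX4I1. The part of these marker levels in the results below was not tested.

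With COX4I1 targeted, transcripts for cystine uptake and for glutathione cleavage by CHAC1 were higher, while no gene of glutathione synthesis or reduction, nor CHAC2 or GPX4, passed the test. GCLC and GCLM did not pass, yet their log2 fold changes, 0.38 and 0.43, were close to the 0.39 of SLC3A2. The 95% intervals of SLC3A2, GCLC and GCLM all lay above 0. Of the 9 genes, 3 passed an adjusted p under 0.05 and all 3 were higher: CHAC1, SLC7A11 and SLC3A2. Over all genes tested, 2.08% passed that test in either direction, 1.06% higher and 1.02% lower. CHAC1 and SLC7A11 also changed by at least 2-fold, which 0.202% of all genes tested did with a passing p and 0.135% did upward. The median log2 fold change was 0.38 over the 9 genes, 8 of which were above 0, against -0.0023 over all genes tested, of which 49.4% were above 0. An unadjusted p under 0.05 was reached by 5 of the 9 and by 17.3% of all genes tested. With the 9 genes chosen when earlier results of these data were known, these shares describe the genes and are not a test.

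**Figure D1:**
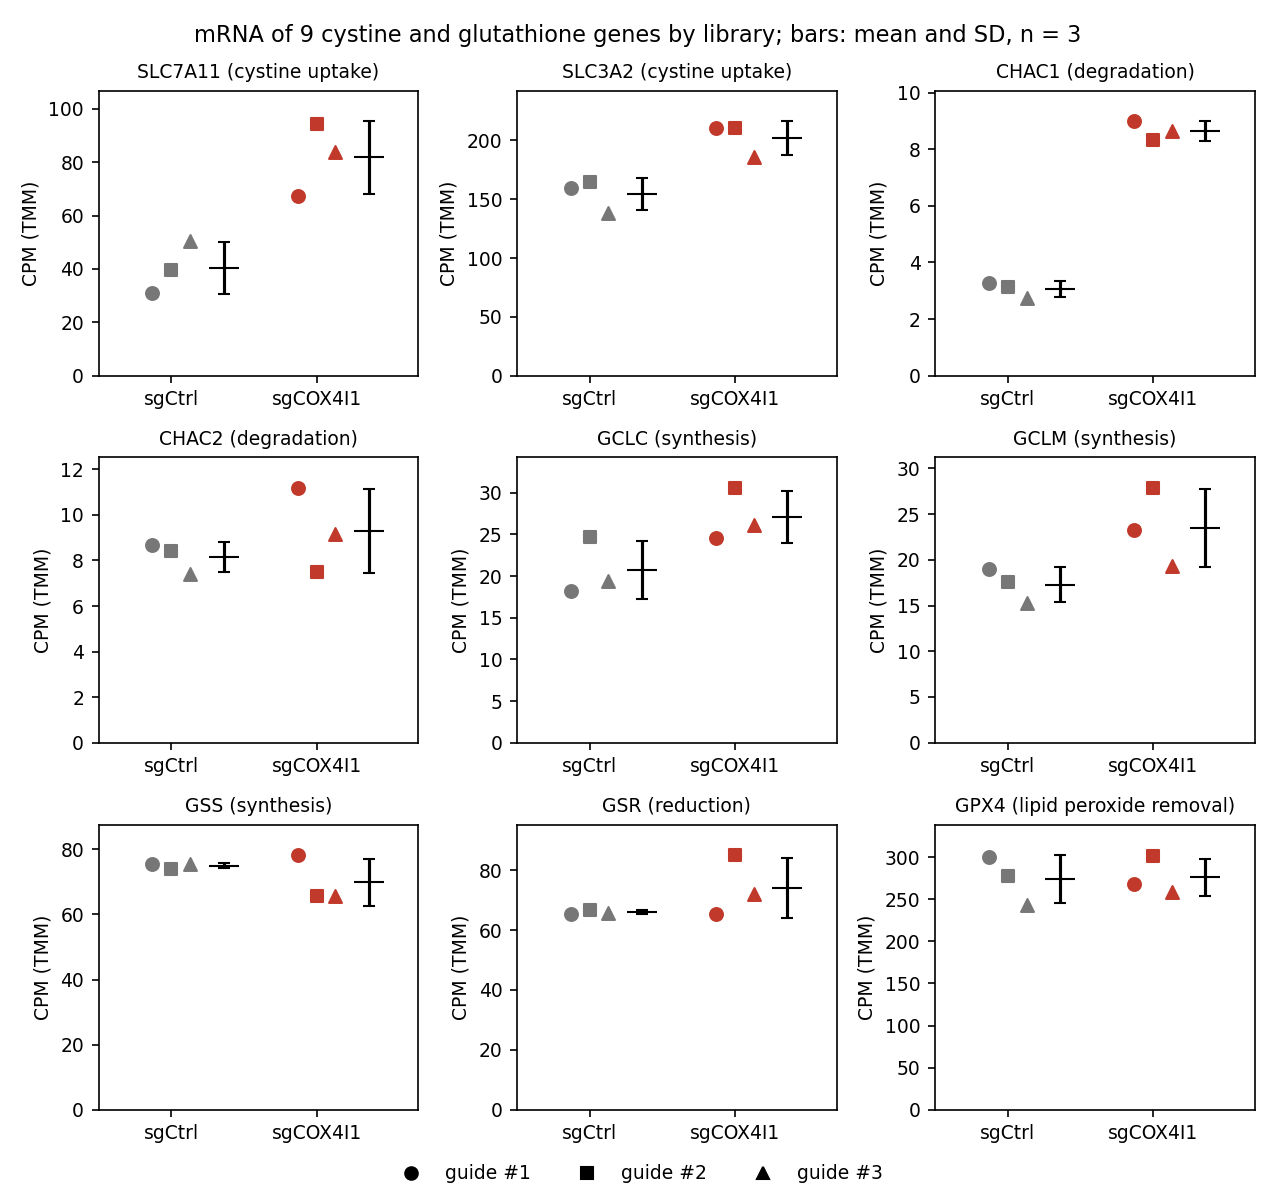
Level of each of the 9 genes in every library, in TMM-normalized CPM on linear axes that start at 0; gray marks are sgCtrl, red marks sgCOX4I1, the marker shape gives the guide number, and the black bars show the mean and SD of 3 libraries. SLC7A11, SLC3A2, CHAC1 and GCLM have no overlap between groups, and GSS and GPX4 have overlapping groups.

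SLC7A11, the transporter subunit of system xc- and a gene of 12 exons on the minus strand of chromosome 4 (138164097 to 138242349, GRCh38), had 30.8, 39.5 and 50.4 CPM in the control cultures #1, #2 and #3. In sgCOX4I1 #1, #2 and #3 it had 67.3, 94.2 and 83.8 CPM. Every sgCOX4I1 library lay above every sgCtrl library, although the sgCtrl cultures alone ranged widely, with sgCtrl #3 the highest of them. The mean went from 40.2 ± 9.80 to 81.8 ± 13.6 CPM (SD, n = 3 each), a fold change of 2.03 (95% interval 1.62 to 2.54). On the log2 scale the change was 1.02 with an SE (standard error) of 0.15 (adjusted p = 0.00397, edgeR quasi-likelihood, Benjamini-Hochberg). The coefficient of variation was 24.4% in sgCtrl and 16.6% in sgCOX4I1, above the 4.20% or less that counting alone gives, so depth did not limit this gene. Without sgCtrl #2, the fit kept the log2 fold change at 1.01 but lost the call (adjusted p = 0.0934, the same edgeR test on 5 libraries). Of the exonic bases of SLC7A11, 8.97% are shared with SLC7A11-AS1 on the opposite strand, and the strand setting of the counting is not given in the sources used here.

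SLC3A2, the heavy chain that SLC7A11 shares with other amino acid transporters, lies on the plus strand of chromosome 11 (62856004 to 62888880). Its levels were 160, 165 and 139 CPM in sgCtrl and 210, 211 and 186 CPM in sgCOX4I1. The lowest sgCOX4I1 library, #3, was still above the highest sgCtrl library, #2. Its mean went from 154 ± 13.9 to 202 ± 14.2 CPM (SD, n = 3 each), a fold change of 1.31 (95% interval 1.15 to 1.49), with a log2 fold change of 0.39 (SE 0.085, adjusted p = 0.0341, edgeR quasi-likelihood, Benjamini-Hochberg). The call was lost when sgCtrl #2, sgCtrl #3, sgCOX4I1 #1 or sgCOX4I1 #2 was left out, with log2 fold changes of 0.44, 0.32, 0.36 and 0.36 and adjusted p = 0.134, 0.0708, 0.0636 and 0.144 in the same edgeR test.

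Since the subunits form 1 transporter, their ratio was taken within each library. SLC7A11 stood at 0.194, 0.240 and 0.364 of the SLC3A2 level in CPM in sgCtrl and at 0.320, 0.448 and 0.451 in sgCOX4I1. The ratio in sgCtrl #3 was above that in sgCOX4I1 #1, so the groups overlapped. In log2 the ratio went from -1.96 ± 0.46 to -1.32 ± 0.28 (SD, n = 3 each), a difference of 0.65 (two-sided exact permutation test, p = 0.2, where 3 against 3 cannot go below 0.1, and 0.3 after Benjamini-Hochberg adjustment over the 3 ratios examined).

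CHAC1, which cleaves glutathione and whose short gene of 3 exons lies on the plus strand of chromosome 15 (40952962 to 40956512), showed the largest change of the 9 genes. It was at 3.27, 3.15 and 2.75 CPM in sgCtrl, from 60, 58 and 56 counts, and at 9.0, 8.31 and 8.63 CPM in sgCOX4I1, from 202, 143 and 270 counts. Both groups were tight, with a wide gap between them. The mean went from 3.06 ± 0.271 to 8.65 ± 0.343 CPM (SD, n = 3 each), a fold change of 2.83 (95% interval 2.21 to 3.63). Its log2 fold change was 1.5 with an SE of 0.17 (adjusted p = 0.000638, edgeR quasi-likelihood, Benjamini-Hochberg), the 7th smallest adjusted p and the 13th largest absolute log2 fold change among all genes tested. Counting error for this gene reached 13.4% of a library's value, more than the spread seen between its libraries. CHAC1 passed the test in each of 13 alternative analyses, with log2 fold changes from 1.43 to 1.55.

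CHAC2, the paralog that is known for slower cleavage of glutathione, is encoded on the plus strand of chromosome 2 (53767804 to 53775196). It had 8.66, 8.42 and 7.42 CPM in sgCtrl and 11.2, 7.5 and 9.18 CPM in sgCOX4I1. In sgCOX4I1, libraries #1 and #3 were above the sgCtrl range and #2 was inside it, near its lower end. The log2 fold change of 0.19 did not pass the test (95% interval -0.16 to 0.54, adjusted p = 0.589, edgeR quasi-likelihood, Benjamini-Hochberg). The upper end of that interval was below the lower end of the CHAC1 interval, 1.14.

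Within a library, CHAC1 was at 0.384, 0.382 and 0.379 of the CHAC2 level in CPM in the sgCtrl cultures, and at 0.807, 1.11 and 0.941 of it in the sgCOX4I1 cultures. The 3 sgCtrl ratios were nearly the same, and every sgCOX4I1 ratio was above them. Counting error alone reached 13.4% of a library's value for CHAC1, so the sgCtrl ratios were closer to each other than the counts can resolve. The log2 ratio went from -1.39 ± 0.0099 to -0.084 ± 0.23 (SD, n = 3 each), a difference of 1.31 (p = 0.1 in a two-sided exact permutation test, the smallest that 3 against 3 allow, and 0.3 after Benjamini-Hochberg adjustment over the 3 ratios).

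**Figure D2:**
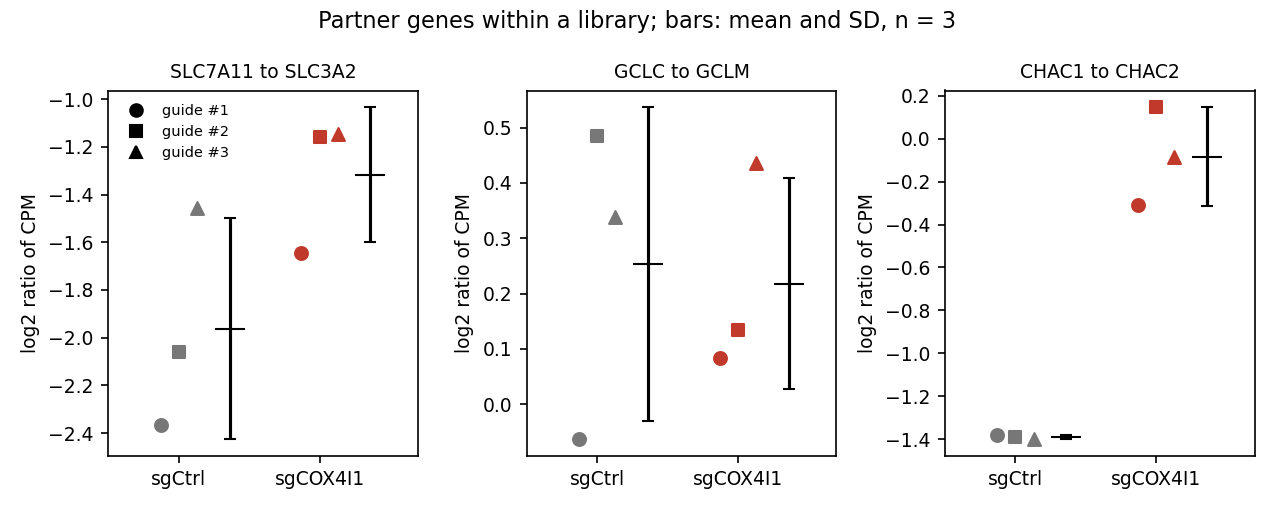
Log2 ratio of CPM between partner genes within each library for SLC7A11 to SLC3A2, GCLC to GCLM and CHAC1 to CHAC2; gray marks are sgCtrl, red marks sgCOX4I1, shapes give the guide number, and black bars show the mean and SD of 3 libraries. The groups are apart for CHAC1 to CHAC2, where the mean goes from -1.39 to -0.084, and overlap for the other pairs.

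GCLC, the catalytic subunit of the rate-limiting enzyme of glutathione synthesis, is on the minus strand of chromosome 6 (53497341 to 53616970). It was at 18.2, 24.7 and 19.4 CPM in sgCtrl and at 24.6, 30.6 and 26.1 CPM in sgCOX4I1. The groups touched, since sgCtrl #2 was level with sgCOX4I1 #1, while the other libraries were in the order of their groups. From 20.7 ± 3.44 to 27.1 ± 3.09 CPM (SD, n = 3 each), the log2 fold change was 0.38 (95% interval 0.11 to 0.66), which did not pass the test over all genes (adjusted p = 0.136, edgeR quasi-likelihood, Benjamini-Hochberg). Exonic bases shared with other annotated genes came to 6.14% on the same strand and 3.54% with GCLC-AS1 on the opposite strand.

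GCLM, the modifier subunit that raises the activity of GCLC, is on the minus strand of chromosome 1 (93885199 to 93909456). Its levels were 19.0, 17.6 and 15.3 CPM in sgCtrl and 23.3, 27.8 and 19.3 CPM in sgCOX4I1. No sgCOX4I1 library overlapped the sgCtrl range, though sgCOX4I1 #3 was only just above sgCtrl #1. The mean went from 17.3 ± 1.89 to 23.5 ± 4.28 CPM (SD, n = 3 each), a log2 fold change of 0.43 (95% interval 0.14 to 0.73) that missed the threshold over all genes (adjusted p = 0.123, edgeR quasi-likelihood, Benjamini-Hochberg). With genes of low counts kept in the fit, the adjusted p was 0.0454 in the same edgeR test.

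The ratio of GCLC to GCLM in CPM was 0.957, 1.40 and 1.27 in sgCtrl and 1.06, 1.10 and 1.35 in sgCOX4I1. The groups lay on top of each other, with a difference in log2 ratio of -0.036 between means of 0.25 ± 0.28 and 0.22 ± 0.19 (SD, n = 3 each, two-sided exact permutation test, p = 0.9, also 0.9 after adjustment over the 3 ratios).

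GSS, which completes glutathione by adding glycine, lies on the minus strand of chromosome 20 (34928432 to 34956027). It was at 75.4, 74.1 and 75.4 CPM in sgCtrl and at 78.3, 65.8 and 65.7 CPM in sgCOX4I1. The sgCOX4I1 libraries fell on both sides of a narrow sgCtrl range. GSS was the 1 gene of the 9 with a value below 0 on the log2 scale, -0.10 (95% interval -0.28 to 0.079, adjusted p = 0.583, edgeR quasi-likelihood, Benjamini-Hochberg), and it did not pass the test.

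GSR, which returns oxidized glutathione to its reduced form, was at 65.4, 66.6 and 65.8 CPM in sgCtrl and at 65.2, 85.0 and 71.9 CPM in sgCOX4I1. The sgCtrl libraries were close together, sgCOX4I1 #1 was just below them and the other sgCOX4I1 libraries were above. The log2 fold change of 0.17 (95% interval -0.034 to 0.36) did not pass the test (adjusted p = 0.387, edgeR quasi-likelihood, Benjamini-Hochberg).

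GPX4, encoded on the plus strand of chromosome 19 (1103982 to 1106791), reduces lipid peroxides in membranes and was the most abundant of the 9 transcripts per length. Its levels were 300.4, 278 and 243 CPM in sgCtrl and 269, 301 and 259 CPM in sgCOX4I1. The ranges overlapped almost entirely. Means of 274 ± 28.8 and 276 ± 21.9 CPM (SD, n = 3 each) gave a log2 fold change of 0.013 (95% interval -0.18 to 0.21, adjusted p = 0.964, edgeR quasi-likelihood, Benjamini-Hochberg), and its sign turned when sgCtrl #3 or sgCOX4I1 #2 was left out, to -0.064 and -0.052.

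**Figure D3:**
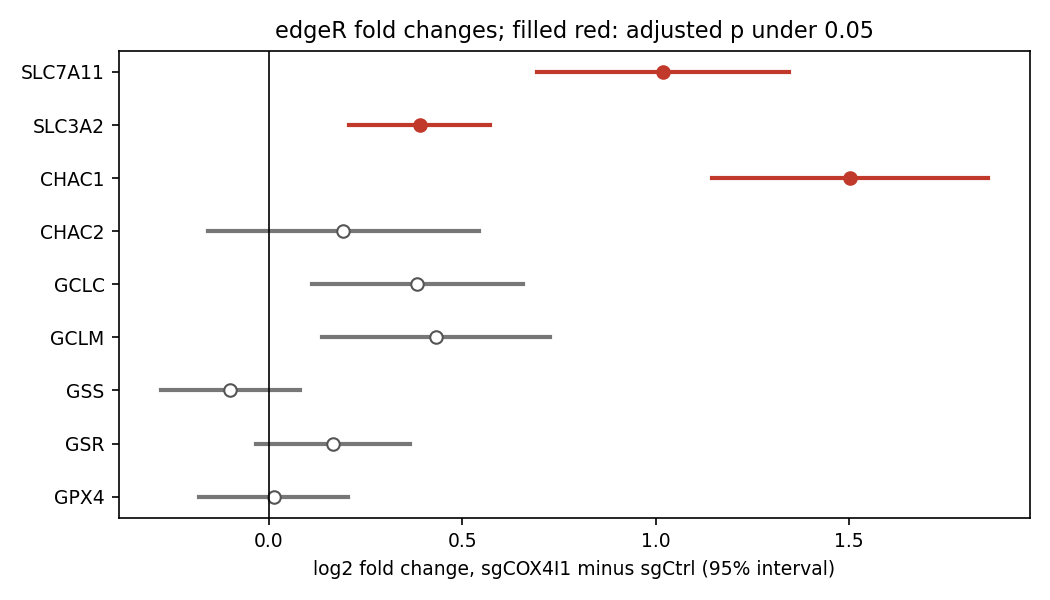
Log2 fold change of each gene, sgCOX4I1 minus sgCtrl, from edgeR with its 95% interval as a horizontal line; filled red points have an adjusted p under 0.05. SLC7A11, SLC3A2 and CHAC1 are filled, at 1.02, 0.39 and 1.5, and the intervals of CHAC2, GSS, GSR and GPX4 cross 0.

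Groups were apart for 4 of the 9 genes, SLC7A11, SLC3A2, CHAC1 and GCLM, all higher in sgCOX4I1. Over all genes tested this was so for 21.6%, and 11.2% were higher without overlap. With 1 library left out, in comparisons of 3 libraries with 2, the count ran from 4 to 7 of the 9, the highest without sgCOX4I1 #1. In these fits 28.2% to 37.8% of all genes tested had no overlap, and 32.4% without sgCOX4I1 #1. The culture that kept the most COX4I1 mRNA was sgCOX4I1 #2. Among the 3 sgCOX4I1 libraries it was the highest for SLC7A11, SLC3A2, GCLC, GCLM, GSR and GPX4. It was the lowest for CHAC1 and CHAC2 and lay between the others for GSS. The share of all genes tested that were highest in this library was not counted, and a relation to the COX4I1 mRNA left was not tested. For SLC7A11 the sgCOX4I1 libraries stood at 167%, 234% and 208% of the control mean in the order #1, #2 and #3, against 26.7%, 76.7% and 27.0% for COX4I1. These are mRNA levels, and the counts hold no level of COX4I1 protein, which the study examined by Western blot.

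**Figure D4:**
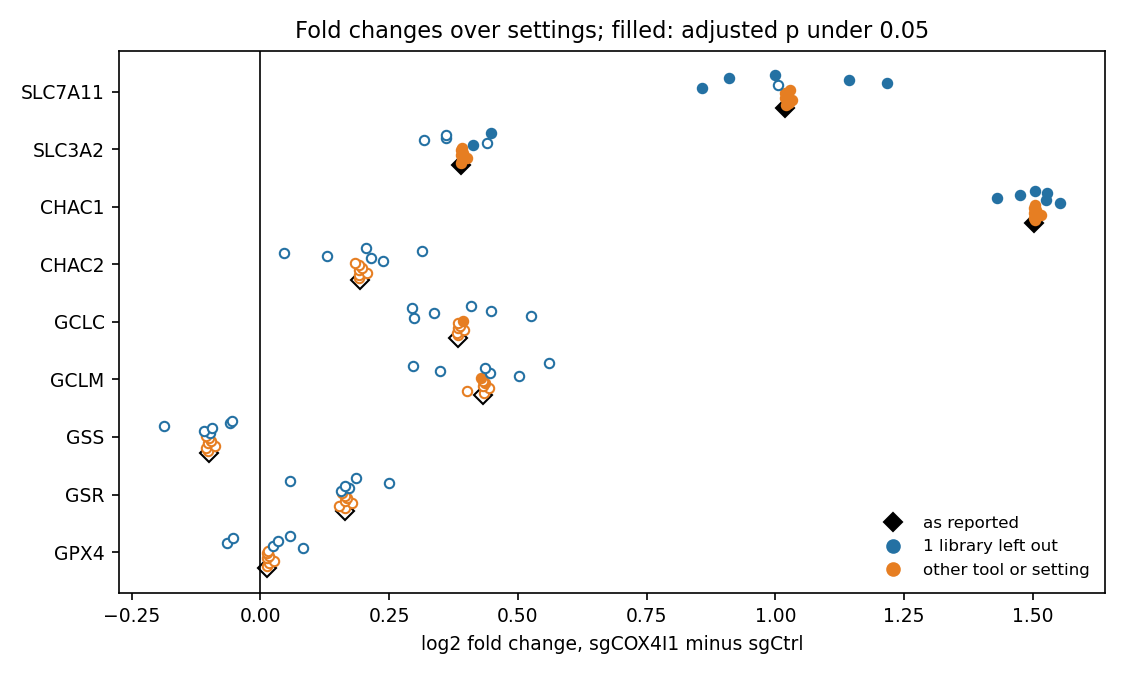
Log2 fold change of each gene, sgCOX4I1 minus sgCtrl, as reported (black diamond), with 1 library left out (blue) and with another tool or setting (orange); filled marks have an adjusted p under 0.05. CHAC1 stays between 1.43 and 1.55 and filled, SLC7A11 between 0.86 and 1.22 with 1 open mark, and GPX4 lies on both sides of 0.

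Levels can be set between genes only per length, here as CPM per kilobase of the canonical transcript, averaged over 3 libraries. In sgCtrl GPX4 led with 322, followed by SLC3A2 with 81.9, GSS with 39.3 and GSR with 21.7 CPM per kilobase, and none of these neighbours overlapped. The lower levels were CHAC2 at 6.24, GCLC at 5.48, SLC7A11 at 4.17, GCLM at 3.54 and CHAC1 at 2.01 CPM per kilobase, of which CHAC2 to GCLM overlapped with their neighbours and CHAC1 lay below the rest. In sgCOX4I1 the leading 4 kept their order, with 325, 107, 36.6 and 24.4 CPM per kilobase. SLC7A11 then stood at 8.48, GCLC at 7.16, CHAC2 at 7.09, CHAC1 at 5.69 and GCLM at 4.80 CPM per kilobase, and each of these overlapped with its neighbour. With all annotated exonic bases as the length, GSS and GSR changed places and GCLC came 8th in sgCtrl.

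For each gene that passed the test, the genes of at least 10 CPM whose log2 CPM ran most alike over the 6 libraries were looked up among 8989 genes. They were SORL1, SLC8B1 and RUNX3 for SLC7A11, with Pearson correlations of 0.998, 0.996 and 0.995. For SLC3A2 they were MFSD3, ODC1 and EAF2, at 0.997, 0.995 and 0.995. For CHAC1 they were FAH, GTF2H3 and PLAC8, at 0.997, 0.994 and 0.990. The 6 points include the difference between groups, so these values describe the same libraries and carry no test, and 89, 56 and 81 genes exceeded a correlation of 0.95 with SLC7A11, SLC3A2 and CHAC1.

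Around these 9 genes, 112 others that supply cysteine, NADPH or selenocysteine, handle glutathione outside the core steps, or regulate the route were read from the same fit. Of the 94 tested, 6 passed an adjusted p under 0.05, all higher, and 28 had groups without overlap, and the median log2 fold change was 0.084. Over all genes tested, 2.08% passed and 21.6% had no overlap. These lists, too, were chosen with earlier results of these data known. The count of 6 that passed became 11 without sgCtrl #1, 1 without sgCtrl #2 and 2 without sgCOX4I1 #2. Over all genes tested, 247 passed as reported, and 561, 24 and 51 in the same fits. None of 15 genes of cysteine supply, 13 of the gamma-glutamyl cycle and 19 other users of glutathione passed, with median log2 fold changes of 0.13, 0.12 and 0.088. The 6 that passed were 2 of 16 genes of NADPH supply, 3 of 19 transcriptional regulators and 1 of 12 genes of the selenocysteine machinery and its products.

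ME1, the cytosolic malic enzyme that makes NADPH, was at 2.18, 1.63 and 0.737 CPM in sgCtrl, from only 40, 30 and 15 counts. In sgCOX4I1 it was at 6.73, 5.87 and 4.22 CPM, from 151, 101 and 132 counts. All sgCOX4I1 libraries were above the sgCtrl libraries, with a log2 fold change of 1.89 (SE 0.32, adjusted p = 0.00938, edgeR quasi-likelihood, Benjamini-Hochberg). MTHFD2, a mitochondrial enzyme of one-carbon metabolism, rose from 189 ± 11.5 to 253 ± 7.57 CPM (SD, n = 3 each), a log2 fold change of 0.42 (adjusted p = 0.0119, edgeR). TXNRD1, the cytosolic selenoprotein that reduces thioredoxin with NADPH, was at 136, 127 and 134 CPM in sgCtrl and at 176, 214 and 188 CPM in sgCOX4I1. It too had no overlap, with a log2 fold change of 0.54 (SE 0.082, adjusted p = 0.00461, edgeR).

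Among the regulators, ATF5, a bZIP factor of the mitochondrial stress response, rose from 36.5 ± 1.53 to 58.5 ± 5.0 CPM (SD, n = 3 each), a log2 fold change of 0.68 (adjusted p = 0.00189, edgeR quasi-likelihood, Benjamini-Hochberg). CEBPB, a C/EBP factor, rose from 42.9 ± 4.37 to 66.5 ± 14.1 CPM (SD, n = 3 each), a log2 fold change of 0.63 (adjusted p = 0.0259, edgeR). TRIB3, a pseudokinase induced by ATF4, rose from 32.6 ± 6.20 to 50.2 ± 6.91 CPM (SD, n = 3 each), a log2 fold change of 0.62 (adjusted p = 0.0278, edgeR). The mRNAs of the factors whose motifs were searched were named after their values were seen. ATF4 was at 583 ± 62.2 and 582 ± 39.2 CPM (SD, n = 3 each), and NFE2L2, which encodes NRF2, at 53.0 ± 5.26 and 62.3 ± 5.69 CPM (SD, n = 3 each). Neither passed the test, with log2 fold changes of -0.0035 (95% interval -0.20 to 0.19) and 0.23 (95% interval 0.031 to 0.44, adjusted p = 0.215, edgeR), and the data hold no protein level or activity of these factors.

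**Figure D5:**
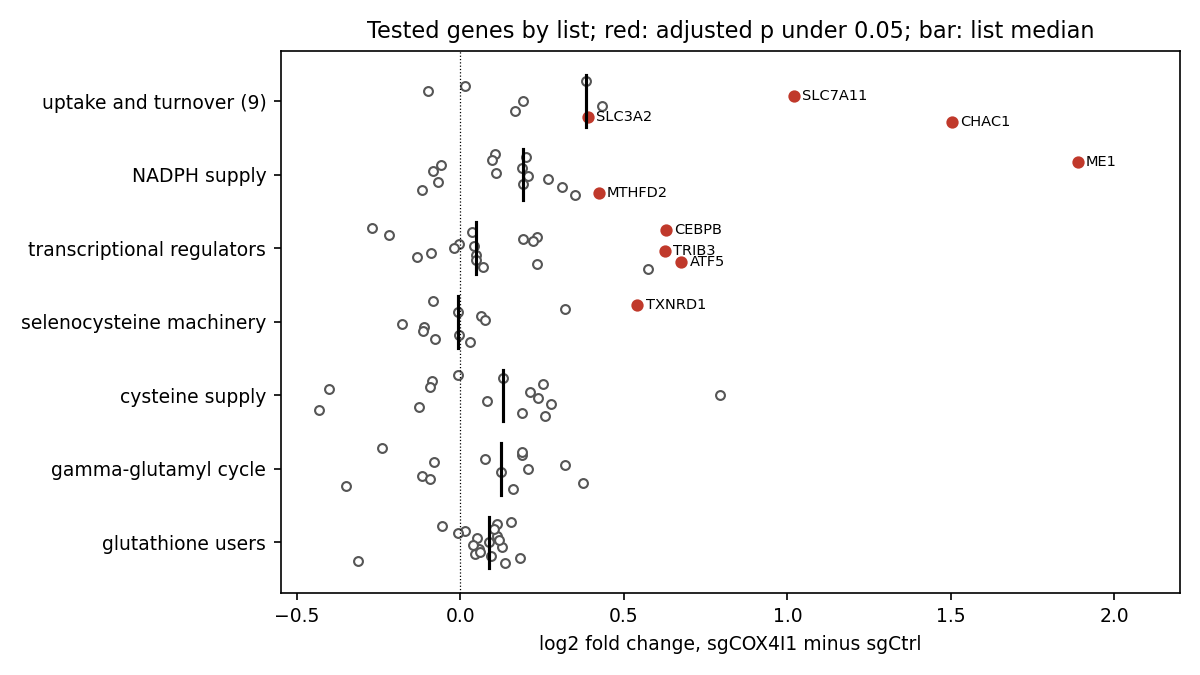
Log2 fold change, sgCOX4I1 minus sgCtrl, of every tested gene in the 9 uptake and turnover genes and in 6 surrounding lists, 1 row per list; red points have an adjusted p under 0.05 and are named, and the black bar is the list's median. The median of the 9 genes is 0.38, against medians from -0.0063 to 0.19 for the surrounding lists.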

How the data were processed

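The authors deposited whole-number counts per gene symbol, without normalization, as 1 table of 19845 genes. The submitters' processing notes name bcl2fastq 2.20.0.422, STAR 2.6.0a, edgeR and the build GRCh38. The deposited counts are labelled as merged HTSeq counts, and each column name carries the ending of STAR's sorted alignments with duplicates marked. By these labels the counts come from STAR and HTSeq, whereas the study's methods name Trimmomatic, Bowtie2 and RSEM. The letter (C for sgCtrl, K for the knockout) and the number of each column gave its sample, and no row holds unassigned reads. With STAR and gene counting, reads that fall on overlapping genes may be lost.

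From these counts, edgeR 4.0.16 in R 4.3.3 was run on all 6 libraries with TMM factors, filterByExpr and the quasi-likelihood test, without covariates, with Benjamini-Hochberg adjustment over 11861 genes and a call at an adjusted p under 0.05. Standard errors are the absolute log2 fold change over the root of F, and 95% intervals use edgeR's total degrees of freedom. Ratios used a pseudocount of 0.1 CPM, and log2 CPM for likeness a prior count of 2. Within groups, pairs of libraries differed beyond sampling noise (chi-square over its degrees of freedom, 10.6 to 26.6). On simulated counts with 200 changed genes, 170 were recovered at 1.5-fold with 8 others called, 196 at 2-fold with 16 and 199 at 3-fold with 15. The simulated libraries shared no variation by replicate number, and no change below 1.5-fold was simulated. The recovery therefore does not cover SLC3A2, GCLC and GCLM, with fold changes of 1.31, 1.30 and 1.35.

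The members and gene lists were chosen with earlier results of these data known. The named genes are the 9 members, COX4I1, every called gene of a surrounding list up to 5, and the 3 genes most like each called member. SQOR and SARS1 were read under older symbols and GSTT1 was not matched. Positions and lengths came from GENCODE 44 on GRCh38, and promoters from RefSeq.

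Alternatives were DESeq2 1.42.0, limma-voom (limma 3.58.1), library size without TMM, DESeq2 size factors, no filter, at least 10 counts in every library, the replicate number as a block, and each library left out in turn. The labels do not say that cultures were independent beyond their guides, so p-values measure the spread between these samples.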

Additional observations from a re-analysis of the deposited data

How the results depend on the processing

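Over 13 alternatives, 8 of the 9 genes kept the sign of their log2 fold change, and GPX4, which ranged from -0.064 to 0.083, turned to -0.064 without sgCtrl #3 and -0.052 without sgCOX4I1 #2. The count of genes called over the whole table moved from 247 to 466 with DESeq2, 537 with no filter on low counts and 1408 with the replicate block, and ranged from 24 (without sgCtrl #2) to 561 (without sgCtrl #1) when 1 library was left out, with 51 without sgCOX4I1 #2 and 89 without sgCOX4I1 #3. Of the 9 genes, 3 were called as reported, 4 with no filter (GCLM added) and 5 with the replicate block (GCLC and GCLM added), and 1 (CHAC1, without sgCtrl #2) to 3 with 1 library left out. Of the surrounding genes, 6 were called as reported, 11 with DESeq2, 13 with no filter, 23 with the replicate block, and 1 to 11 with 1 library left out. Genes of the 9 without overlap numbered 4 to 7 with 1 library left out, where 28.2% to 37.8% of all genes tested had no overlap. For the ratios, the alternatives also included pseudocounts of 0 and 1 CPM. The difference in log2 ratio ranged from 0.44 to 0.90 for SLC7A11 to SLC3A2. For CHAC1 to CHAC2 it ranged from 1.10, with a pseudocount of 1 CPM, to 1.42. The GCLC to GCLM difference ranged from -0.19 to 0.080, and its sign turned in 4 of these settings (0.080, 0.0072, 0.032 and 0.0060). The cause of these moves was not tested.

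The replicate number is that of the guide, and the labels do not give it as a pairing of cultures. Same-numbered libraries deviated with correlations of 0.38, -0.024 and 0.29, and libraries of different numbers with correlations from -0.38 to 0.13. The fit as reported leaves the number out, and whether the number pairs the cultures was not tested. With the replicate block, GCLC had an adjusted p of 0.00807 and GCLM of 0.0110 in edgeR's quasi-likelihood test. Paired exact permutation tests of the 3 ratios gave p = 0.25, 1 and 0.25, where 3 pairs cannot go below 0.25, so this test could not pass. Depth limits CHAC1 the most of the 9 genes, with a counting error of up to 13.4% of a library's value.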
